A study of Mus musculus with 23 samples.

Results

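Cells that die expose phosphatidylserine on their surface, and macrophages bind this lipid directly or through secreted bridging proteins before they engulf the cell. The receptor tyrosine kinases AXL, MERTK and TYRO3 recognise it through the ligands GAS6 and protein S (Pros1), whereas TIM4 (Timd4) and TIM3 (Havcr2) bind it themselves. MFG-E8 (Mfge8) links phosphatidylserine to integrins that contain the alpha v chain, among them alpha v beta 5, whose beta chain is encoded by Itgb5. In the spleen and the bone marrow this machinery clears senescent blood cells and the nuclei that erythroblasts expel. These 9 genes, Axl, Mertk, Tyro3, Gas6, Pros1, Timd4, Havcr2, Mfge8 and Itgb5, are described here across the 8 groups of the series. They were taken by gene name, with earlier results of these data known. Each is present as 1 gene of 22524 in one deposited table and 1 of 25700 in the other.

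The 23 RNA-seq libraries were each made from 1000 sorted macrophages of C57BL/6 mice. At day 7 after birth, spleen macrophages formed the groups RPM_d7_vavCre (n = 3) and RPM_d7_WT (n = 3), and bone marrow macrophages the groups BMM_d7_vavCre (n = 3) and BMM_d7_WT (n = 3). WT is wild type, and vavCre is a transgene in which Vav regulatory sequence expresses Cre in blood-forming cells. RPM_d7_Spic_KO (n = 2) and RPM_d7_Spic_WT (n = 3) were spleen macrophages of 7-day-old pups with and without a knockout of Spic, a transcription factor gene of red pulp macrophages. RPM_TAM_CreERT2 (n = 4) and RPM_TAM_WT (n = 2) were adult spleen macrophages, where CreERT2 is a Cre that tamoxifen activates. TAM is not explained in the labels. The floxed gene and the promoter of CreERT2 are not given in the labels. The design text concerns the few macrophages that remain in the absence of Pparg. The labels do not say whether replicates came from separate animals, and p-values then measure only the spread between these libraries.

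The vavCre libraries and their wild types, which share 1 table, held 4.26 to 21.7 M reads, and the libraries of the other table held 0.693 to 6.29 M. Levels are normalised read counts, comparable within a table only, and a level is set against that of another gene only per kb of exon. All 5 macrophage markers checked, among them Csf1r and Adgre1, were detected in every group. Pparg levels were 2496 to 4002 in RPM_d7_vavCre against 1550 to 2124 in RPM_d7_WT (limma adjusted p = 0.0313), so a value summed over the whole gene does not check a Cre label. Spic levels were 931 to 1236 in RPM_d7_Spic_KO against 1993 to 3110 in RPM_d7_Spic_WT (limma adjusted p = 0.0319, and 0.0562 with no filter). This Spic call was kept in 8 of 14 alternative analyses, and the adjusted p reached 0.148 without RPM_d7_Spic_WT replicate 1. Pparg levels were 21.7 to 26 in RPM_d7_Spic_KO against 211 to 330.4 in RPM_d7_Spic_WT (limma adjusted p = 2.9e-05). The summed level of 7 erythroid markers was 94552 to 137219 in RPM_d7_vavCre against 184312 to 276631 in RPM_d7_WT, and 71818 to 107402 in BMM_d7_vavCre against 182416 to 274333 in BMM_d7_WT. That of 7 neutrophil markers was 2444 to 5442 in RPM_d7_vavCre against 318 to 2408 in RPM_d7_WT. Of 5 red pulp macrophage markers, all detected in every group, Itgad (integrin alpha D) and Vcam1 were called lower in the vavCre groups of both tissues and in RPM_d7_Spic_KO. Slc40a1 (ferroportin) was called higher in vavCre, by 0.33 on the log2 scale in the spleen and 0.29 in the marrow (limma adjusted p = 0.0131 and 0.0211), but not with edgeR on recovered reads. Spic was lower in splenic vavCre (-0.69, limma adjusted p = 0.00116) and differed by -0.10 in the marrow (0.705), and Hmox1 was called lower in RPM_d7_Spic_KO alone of these 3 comparisons. In RPM_TAM_CreERT2 Itgad was the 1 of the 5 called, lower than in RPM_TAM_WT (log2 change -4.30). That call was kept in 11 of 14 alternative analyses. In bulk libraries, fewer cells of a type and less RNA per cell cannot be told apart.

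The promoters of Axl, Mertk, Gas6 and Timd4 are shown because the results turn on these 4 genes. Each window runs 5′ to 3′ on the gene's own strand from 250 bases before the RefSeq start to 50 bases after it (GRCm38.p6). The Axl window is chr7:25788684-25788983 on the minus strand, and the gene (ENSMUSG00000002602) spans 25757273 to 25788705 of chromosome 7. The Mertk window is chr2:128698665-128698964 on the plus strand, and the gene (ENSMUSG00000014361) spans 128698956 to 128802894 of chromosome 2. The Gas6 window is chr8:13494486-13494785 on the minus strand, and the gene (ENSMUSG00000031451) spans 13465374 to 13494490 of chromosome 8. The Timd4 window is chr11:46810549-46810848 on the plus strand, and the gene (ENSMUSG00000055546) spans 46810800 to 46844332 of chromosome 11. Capitals mark each match to GAGGAA, the PU box that PU.1 and related ETS factors bind (SPIC is of that family), or to AGGTCA, the half-site of many nuclear receptors, on either strand.
Axl: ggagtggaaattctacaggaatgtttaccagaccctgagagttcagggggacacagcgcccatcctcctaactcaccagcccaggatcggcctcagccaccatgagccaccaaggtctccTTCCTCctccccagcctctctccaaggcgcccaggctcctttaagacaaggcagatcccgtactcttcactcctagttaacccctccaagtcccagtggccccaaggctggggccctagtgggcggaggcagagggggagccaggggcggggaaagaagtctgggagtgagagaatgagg
Mertk: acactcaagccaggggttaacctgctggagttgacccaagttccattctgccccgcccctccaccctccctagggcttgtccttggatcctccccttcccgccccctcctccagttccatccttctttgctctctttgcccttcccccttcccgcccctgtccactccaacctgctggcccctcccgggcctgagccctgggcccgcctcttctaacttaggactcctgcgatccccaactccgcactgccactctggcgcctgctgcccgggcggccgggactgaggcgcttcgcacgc
Gas6: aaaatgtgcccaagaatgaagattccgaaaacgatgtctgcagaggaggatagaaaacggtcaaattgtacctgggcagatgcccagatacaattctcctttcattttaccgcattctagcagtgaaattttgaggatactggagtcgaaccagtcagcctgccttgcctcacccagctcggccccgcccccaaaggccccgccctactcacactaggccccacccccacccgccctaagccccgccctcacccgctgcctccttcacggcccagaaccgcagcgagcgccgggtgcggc
Timd4: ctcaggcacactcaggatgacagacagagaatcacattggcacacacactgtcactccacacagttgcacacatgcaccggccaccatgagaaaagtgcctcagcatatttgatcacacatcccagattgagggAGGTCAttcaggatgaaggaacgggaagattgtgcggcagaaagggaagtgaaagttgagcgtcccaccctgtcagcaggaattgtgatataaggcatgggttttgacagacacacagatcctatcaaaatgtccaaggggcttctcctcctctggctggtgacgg
Axl held 1 PU box, read on the strand opposite the gene (TTCCTC as printed), and Timd4 held 1 half-site, on the gene's own strand. No match was found in the windows of Mertk and Gas6. Among the other genes, Havcr2 held 1 half-site and 1 PU box, and Mfge8 held 1 PU box. PPARγ with its partner RXR binds DR1, a direct repeat of the half-site with 1 base of any kind between the copies, and none of the 9 windows held it. Of 32851 RefSeq promoter windows of the same length, 16.3% held the half-site, 28.3% the PU box and 0.0396% the repeat. GC content was 60.3% for Axl, 66% for Mertk, 58.3% for Gas6 and 50.7% for Timd4, with a median of 52.7% over all windows.

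Of the other genes, Tyro3 (ENSMUSG00000027298) spans 119797733 to 119818104 of chromosome 2 on the plus strand (GRCm38). Pros1 (ENSMUSG00000022912) spans 62854307 to 62929346 and Itgb5 (ENSMUSG00000022817) 33829665 to 33949338 of chromosome 16, both on the plus strand. Havcr2 (ENSMUSG00000020399) spans 46454935 to 46481255 of chromosome 11 on the plus strand, on the same chromosome as Timd4. Mfge8 (ENSMUSG00000030605) spans 79133768 to 79149060 of chromosome 7 on the minus strand. Of the exon bases of Gas6, 34 (1.33%) are shared with Tmem255b on the other strand, and no source used here says that reads were counted by strand.

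Per kb of exon, the order of the 9 genes differed between vavCre and wild-type pups. Timd4 led in RPM_d7_vavCre at 2585 ± 324 per kb, followed by Gas6 at 1273 ± 14.2, Axl at 1107 ± 123 and Mertk at 966 ± 159 (SD, n = 3 each). In BMM_d7_vavCre Gas6 had the highest mean per kb, at 1225 ± 48.9, followed by Timd4 at 981 ± 369.8, which exceeded Gas6 in replicate 1 (1380 against 1232). Mertk came next in that group at 699.8 ± 127, and Axl stood below it at 541 ± 155. In both wild-type groups Axl was the highest, at 4065 ± 44.7 per kb in RPM_d7_WT and 3580 ± 279 per kb in BMM_d7_WT. Mertk and Timd4 followed in wild type, at 1361 ± 77.5 and 1311 ± 149.9 per kb in RPM_d7_WT and 1153 ± 254 and 1811 ± 90.1 per kb in BMM_d7_WT, and Gas6 stood at 198 ± 40.7 and 225 ± 34.0 per kb in the same groups. Itgb5 was at 595 ± 51.6 per kb in RPM_d7_vavCre against 623 ± 54.2 in RPM_d7_WT, and at 394 ± 83.7 in BMM_d7_vavCre against 431 ± 80.9 in BMM_d7_WT. Pros1, Havcr2, Mfge8 and Tyro3 had the lowest levels per kb in all 4 groups.

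**Figure D1:**
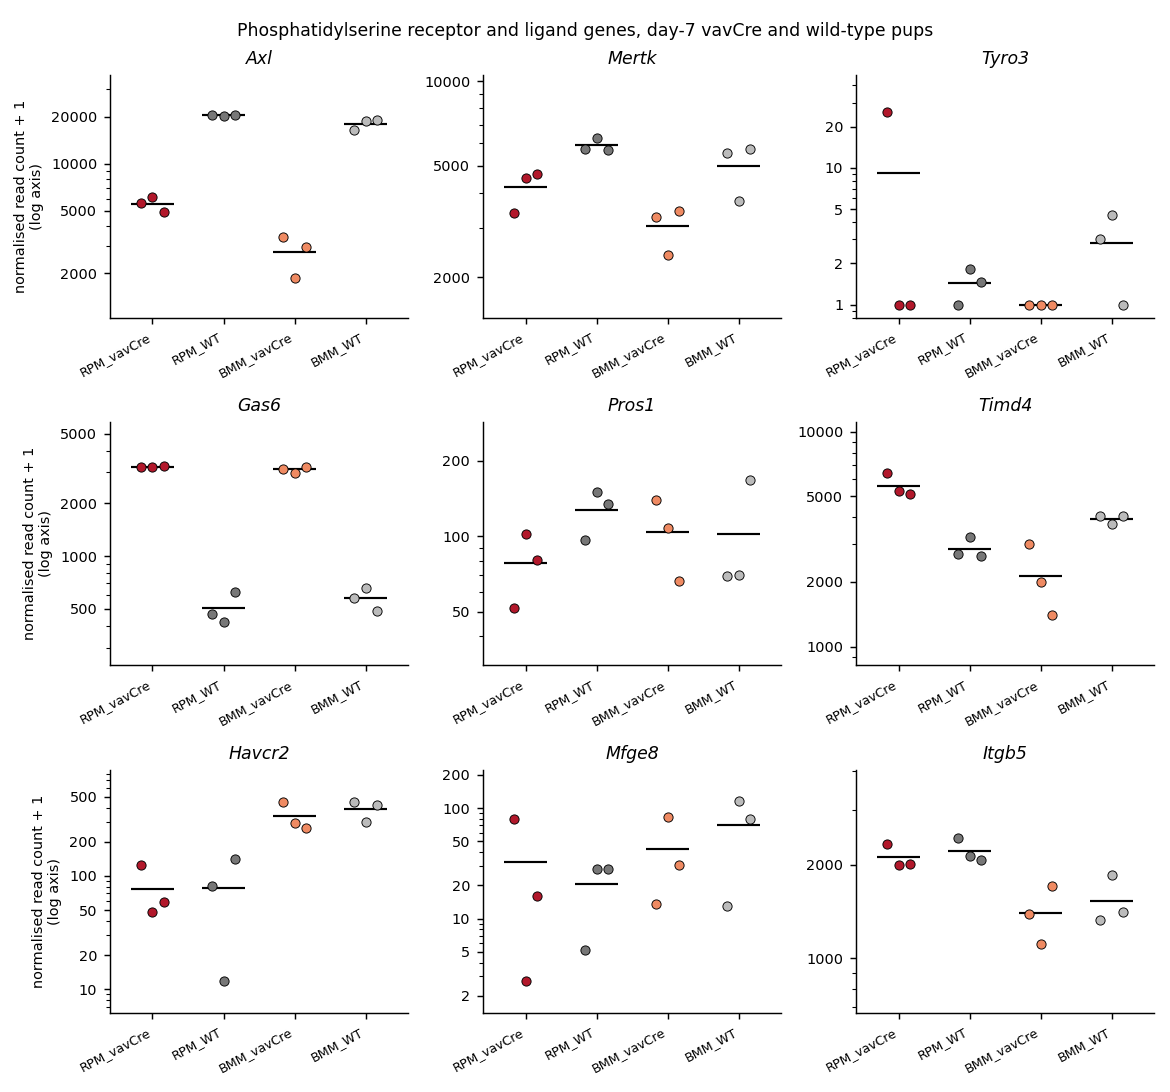
Normalised read count plus 1 (log axis) of each of the 9 genes in spleen (RPM) and bone marrow (BMM) macrophages of 7-day-old vavCre and wild-type pups, where each point is 1 library and the line is the mean of 3. Axl is lower and Gas6 higher in every vavCre library than in every wild-type library of either tissue, and Timd4 is higher in splenic vavCre but lower in marrow vavCre libraries.

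The vavCre comparison in the spleen asks how the remaining red pulp macrophages of vavCre pups differ from wild type, and the one in the marrow asks the same of bone marrow macrophages. Axl, the receptor kinase that binds GAS6, fell in both tissues, and Gas6, its ligand, rose in both. Timd4 rose in the spleen and fell in the marrow. Mertk, the related receptor kinase, passed the test in the marrow and not in the spleen. In the spleen 3 of the 9 genes were called (2 higher and 1 lower), where 5.52% of the 15130 genes tested were called, 2.98% higher and 2.54% lower. In the marrow 4 of 9 were called (1 higher and 3 lower), where 7.81% of all genes were, 3.41% higher and 4.4% lower.

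Among the receptor kinases, Axl levels were 5596, 6175 and 4940 in RPM_d7_vavCre against 20680, 20230 and 20460 in RPM_d7_WT. Every vavCre library lay below every wild-type library, and the 3 wild-type libraries hardly differed. The log2 change was -1.88 (SE 0.16, 3.69-fold lower, limma adjusted p = 2.11e-07). In the marrow Axl levels were 3383, 1861 and 2926 in BMM_d7_vavCre against 16410, 18680 and 18970 in BMM_d7_WT, again without overlap. The log2 change there was -2.77 (SE 0.16, 6.81-fold lower, limma adjusted p = 2.19e-09). Both calls held in 15 of 15 alternative analyses. The difference between these effects, 0.88 (SE 0.22), did not pass the test (limma adjusted p = 0.261). The erythroid marker sums given above were also lower in vavCre libraries, and their part in the Axl result was not tested. The summed macrophage markers were not lower, at 62807 to 67983 in RPM_d7_vavCre against 54001 to 61958 in RPM_d7_WT. In the marrow they were at 47762 to 54134 in BMM_d7_vavCre against 37203 to 39767 in BMM_d7_WT. Limma called 0 of these 5 markers in the spleen, and 2 higher and 1 lower in the marrow. The summed red pulp macrophage markers were lower, at 132220 to 153278 in RPM_d7_vavCre against 175030 to 196430 in RPM_d7_WT. In the marrow that sum was 75353 to 83914 in BMM_d7_vavCre against 117793 to 123349 in BMM_d7_WT. The part of either macrophage sum in the Axl result was not tested.

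Mertk, which drives engulfment of dying cells in many macrophages, had smaller log2 changes than Axl. Its levels were 3268, 2404 and 3431 in BMM_d7_vavCre against 5530, 3729 and 5734 in BMM_d7_WT. The groups did not overlap, but the lowest wild-type library lay close to the highest vavCre library. The log2 change was -0.71 (SE 0.17, limma adjusted p = 0.0133). The adjusted p was 0.0651 when BMM_d7_WT replicate 1 was left out, 0.0755 without replicate 3 of that group and 0.0701 without BMM_d7_vavCre replicate 2, so each of these ended the call. In the spleen Mertk levels were 3396, 4517 and 4652 in RPM_d7_vavCre against 5751, 6285 and 5664 in RPM_d7_WT. The groups did not overlap there either, yet the log2 change of -0.51 (95% interval -0.87 to -0.15) did not pass (limma adjusted p = 0.104), except when only these groups were fitted (0.023). The difference between the tissues was 0.20 (SE 0.24, limma adjusted p = 0.932).

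Tyro3, the third kinase, had 40 reads in RPM_d7_vavCre replicate 1, a level of 24.55, and 0 reads in replicates 2 and 3. RPM_d7_WT held 0, 1 and 1 reads, BMM_d7_vavCre held 0 in all libraries, and BMM_d7_WT held 1, 4 and 0 reads. A count of 0 allows up to 3 reads, a level of 1.37 to 6.79 across these libraries, so a low level could not be detected at this depth. Such floors cover counting error only.

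The makeup of the receptor kinases, which no scaling between libraries enters, differed between genotypes. Axl held 47.8 to 58.5% of the summed level per kb of Axl, Mertk and Tyro3 in RPM_d7_vavCre against 73.5 to 75.7% in RPM_d7_WT. In the marrow it held 40 to 47.1% in BMM_d7_vavCre against 71.9 to 81.2% in BMM_d7_WT. The ranges did not overlap in either tissue.

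Of the bridging ligands, Gas6, a vitamin K dependent protein that binds all 3 receptor kinases, had levels of 3208, 3240 and 3280 in RPM_d7_vavCre against 469.5, 420.5 and 619.7 in RPM_d7_WT. The vavCre libraries hardly differed (3243 ± 36.1, SD, n = 3) and all lay above the wild type. The log2 change was 2.70 (SE 0.17, 6.52-fold higher, limma adjusted p = 3.89e-09). In the marrow Gas6 levels were 3140, 2989 and 3236 in BMM_d7_vavCre against 573.1, 660.5 and 487 in BMM_d7_WT. The marrow groups did not overlap either, with a log2 change of 2.45 (SE 0.17, 5.47-fold higher, limma adjusted p = 1.95e-08). Both calls held in 15 of 15 alternatives, and the difference between the tissues was 0.25 (95% interval -0.26 to 0.76, limma adjusted p = 0.914).

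Gas6 is also made by endothelial and stromal cells. The summed level of 5 endothelial markers was 539 to 601 in RPM_d7_vavCre against 944 to 1356 in RPM_d7_WT, and 215 to 228 in BMM_d7_vavCre against 286 to 414 in BMM_d7_WT. That of 6 stromal markers was 138 to 673 in RPM_d7_vavCre against 98.9 to 1258 in RPM_d7_WT, and 693 to 2824 in BMM_d7_vavCre against 2007 to 4843 in BMM_d7_WT. All of these markers were detected in each of the 4 groups. The endothelial sums were lower in vavCre libraries without overlap, but Pecam1 was the 1 endothelial marker called (-1.34 in the spleen and -1.51 in the marrow), and the median log2 change of the 5 markers was 0.74 in the spleen and 0.18 in the marrow. The stromal sums overlapped between genotypes. The part of either cell type in the Gas6 result was not tested.

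Pros1, which encodes protein S, the other ligand of Mertk and Tyro3, was at 50.94 to 100.9 in RPM_d7_vavCre against 95.48 to 148.7 in RPM_d7_WT, with a log2 change of -0.73 (95% interval -1.80 to 0.33, limma adjusted p = 0.562). In the marrow it was at 65.63 to 138.2 in BMM_d7_vavCre against 68.37 to 167.2 in BMM_d7_WT (0.10, 95% interval -0.97 to 1.16, limma adjusted p = 0.953). Both pairs of groups overlapped. Within a library, Gas6 exceeded Pros1 per kb by 51.5 to 101 times in RPM_d7_vavCre libraries, against 4.54 to 7.89 times in RPM_d7_WT libraries. In the marrow the ratio was 36.5 to 79.1 in BMM_d7_vavCre and 4.67 to 15.3 in BMM_d7_WT. Mfge8, the bridge to integrins, overlapped widely between genotypes. Its levels were 78.55, 1.696 and 15.07 in RPM_d7_vavCre and 4.23, 27.42 and 27.38 in RPM_d7_WT. In the marrow they were 12.56, 82.42 and 29.42 in BMM_d7_vavCre and 12.07, 114.8 and 79.43 in BMM_d7_WT. Neither comparison passed (limma adjusted p = 1 in the spleen and 0.836 in the marrow).

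**Figure D2:**
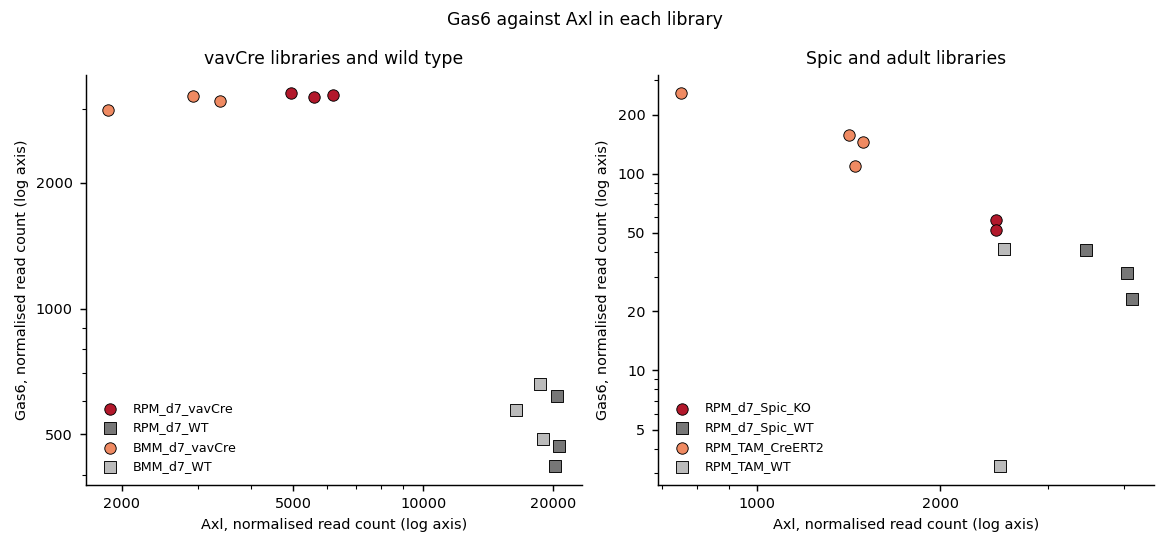
Gas6 against Axl, both as normalised read counts on log axes, with 1 point a library, for the vavCre libraries and their wild types (left) and for the Spic and adult libraries (right). The 6 vavCre libraries lie at lower Axl and higher Gas6 levels than the 6 wild-type libraries of their table, and the 4 adult CreERT2 libraries lie at lower Axl and higher Gas6 than both RPM_TAM_WT libraries.

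Receptor and ligand thus moved in opposite directions within the same libraries. The ratio of Axl to Gas6 per kb was 0.762 to 0.965 in RPM_d7_vavCre against 16.7 to 24.4 in RPM_d7_WT. In the marrow it was 0.315 to 0.545 in BMM_d7_vavCre against 14.3 to 19.7 in BMM_d7_WT. In every vavCre library the ligand exceeded the receptor per kb, and in every wild-type library the receptor exceeded the ligand.

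Timd4 encodes TIM4, which tethers dying cells and marks many tissue-resident macrophages. Its levels were 6424, 5297 and 5132 in RPM_d7_vavCre against 2690, 3223 and 2632 in RPM_d7_WT. All vavCre libraries lay above all wild-type libraries, with a log2 change of 0.98 (SE 0.19, 1.97-fold higher, limma adjusted p = 0.00329). In the marrow Timd4 levels were 2998, 1990 and 1410 in BMM_d7_vavCre against 4052, 3709 and 4044 in BMM_d7_WT. Here all vavCre libraries lay below the wild type, with a log2 change of -0.95 (SE 0.19, 1.93-fold lower, limma adjusted p = 0.00392). The difference between these effects was 1.93 (SE 0.27, limma adjusted p = 0.00259). Timd4 was the 1 gene of 9 called in that test, where 0.119% of genes were called, 0.112% higher and 0.00661% lower. It was called in 20 of 20 alternatives. The summed neutrophil markers, higher in RPM_d7_vavCre as given above, were 1313 to 1928 in BMM_d7_vavCre and 960.1 to 4186 in BMM_d7_WT, and overlapped. B cell marker sums were 1034 to 1888 in BMM_d7_vavCre against 2930 to 8896 in BMM_d7_WT, and dendritic cell marker sums 226 to 521 in BMM_d7_vavCre against 78.4 to 198 in BMM_d7_WT, both without overlap. In the spleen B cell sums were 1096 to 3095 in RPM_d7_vavCre against 2650 to 6024 in RPM_d7_WT, and dendritic cell sums 443 to 928 in RPM_d7_vavCre against 171 to 684 in RPM_d7_WT, both overlapping. Limma called 0 of the 7 neutrophil and 0 of the 6 dendritic cell markers in either vavCre comparison. Their median log2 changes were 2.55 and 0.79 in the spleen and -1.06 and 0.87 in the marrow. Of the 6 B cell markers, Cd79b was the 1 called, lower in the spleen (-1.20) and the marrow (-1.53). The part of these cells in the vavCre results was not tested. Within a library, Timd4 per kb was 2.20 to 3.77 times Mertk in RPM_d7_vavCre against 0.927 to 1.02 times in RPM_d7_WT. The same ratio was 0.820 to 1.83 in BMM_d7_vavCre and 1.41 to 1.98 in BMM_d7_WT, where the ranges overlapped.

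Havcr2, the TIM3 gene, known as an inhibitory receptor of lymphocytes and myeloid cells, was at 124, 46.63 and 57.91 in RPM_d7_vavCre and 80.37, 10.8 and 139.6 in RPM_d7_WT. In the marrow it was at 445.9, 295.7 and 262.5 in BMM_d7_vavCre and 452.5, 296.1 and 424.3 in BMM_d7_WT. The genotypes overlapped in both tissues (log2 change 0.46, 95% interval -0.92 to 1.83, and -0.24, -1.61 to 1.14). Itgb5, the integrin subunit, was at 2325, 2003 and 2012 in RPM_d7_vavCre and 2432, 2131 and 2073 in RPM_d7_WT. In the marrow it was at 1384, 1110 and 1704 in BMM_d7_vavCre and 1327, 1861 and 1409 in BMM_d7_WT. Its intervals were narrow, -0.43 to 0.30 in the spleen and -0.50 to 0.23 in the marrow, and exclude changes as large as those of Axl or Gas6.

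**Figure D3:**
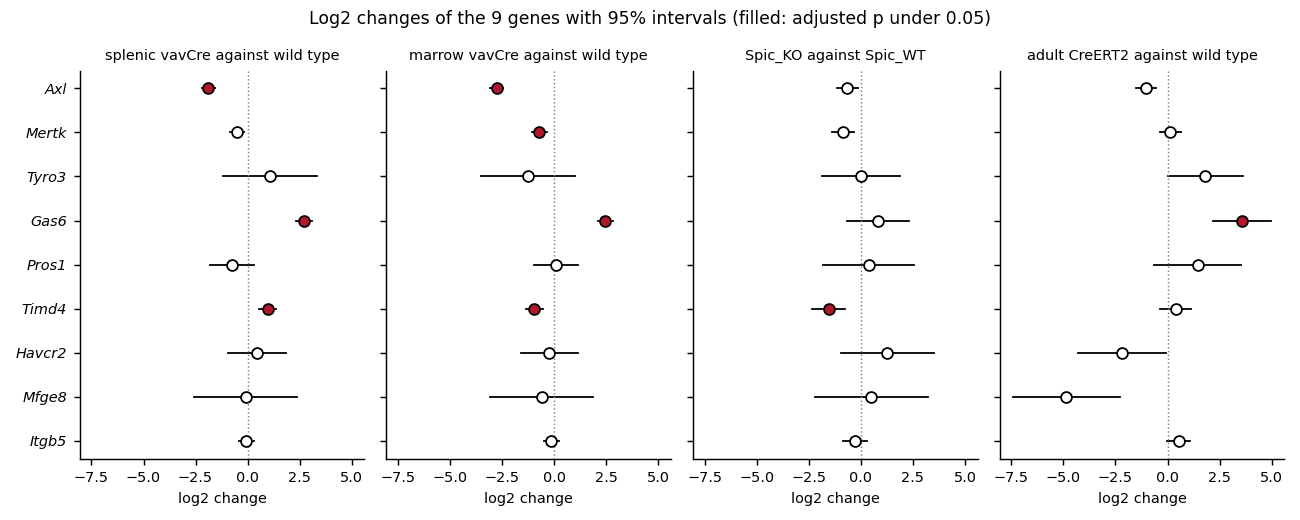
Log2 change with its 95% interval (limma) of each of the 9 genes in the vavCre comparisons of spleen and marrow, in Spic_KO pups and in adult CreERT2 mice, each against its own wild type, with filled points for an adjusted p under 0.05. Axl lies left of 0 in all 4 panels and is filled in both vavCre panels, and Gas6 lies right of 0 and is filled in all but Spic_KO.

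The tissue comparisons ask how the same genes differ between spleen and marrow within a genotype. In wild-type pups 1 of the 9 genes was called, where 3.89% of all genes were, 2.07% higher and 1.82% lower in the spleen. Havcr2 was lower in RPM_d7_WT than in BMM_d7_WT, with the levels given above and no overlap (log2 change -2.91, SE 0.66, limma adjusted p = 0.0155). The adjusted p was 0.0703 without replicate 1 and 0.0646 without replicate 3 of BMM_d7_WT. In vavCre pups 2 of 9 were called, both higher, where 3.5% of all genes were, 2.68% higher and 0.82% lower in the spleen. Axl was higher in RPM_d7_vavCre than in BMM_d7_vavCre (1.07, SE 0.16, limma adjusted p = 0.000373), and so was Timd4 (1.46, SE 0.19, limma adjusted p = 0.000121). The Havcr2 difference in vavCre, -2.21 (SE 0.66), did not pass (limma adjusted p = 0.0754), although its groups did not overlap. It was called in 5 alternatives, and the adjusted p ran from 0.00553 to 0.215. Itgb5 was at higher levels in the spleen in both genotypes without overlap, by 0.54 (limma adjusted p = 0.102) in wild type and 0.61 (0.0614) in vavCre. Ordered by mean, Axl gave 4 groups that did not overlap, from the lowest at 2723 ± 781 in BMM_d7_vavCre, 5570 ± 618 in RPM_d7_vavCre, 18020 ± 1402 in BMM_d7_WT and 20457 ± 225 in RPM_d7_WT. For Timd4 the order from the highest was RPM_d7_vavCre (5618 ± 703), BMM_d7_WT (3935 ± 196), RPM_d7_WT (2848 ± 326) and BMM_d7_vavCre (2133 ± 804), of which the lowest pair overlapped. For Mertk the order from the lowest was BMM_d7_vavCre, RPM_d7_vavCre, BMM_d7_WT and RPM_d7_WT, and each neighbouring pair overlapped.

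The Spic_KO comparison asks how spleen macrophages of pups without Spic differ. Timd4 was the 1 of 9 genes called, and it was lower, where 3.95% of 16650 genes were called, 1.47% higher and 2.48% lower. Its levels were 96.62 and 188.3 in RPM_d7_Spic_KO against 434.5, 366.8 and 380.9 in RPM_d7_Spic_WT, without overlap. The log2 change was -1.54 (SE 0.38, 2.90-fold lower, limma adjusted p = 0.0264). The adjusted p rose above the threshold when RPM_d7_Spic_WT replicate 1 (0.112), 2 (0.0695) or 3 (0.0804) or RPM_d7_Spic_KO replicate 1 (0.13) was left out, and with a replicate block (0.078). Axl levels were 2464 and 2464 in RPM_d7_Spic_KO against 4039, 3467 and 4117 in RPM_d7_Spic_WT. Both knockout libraries lay below the wild type, but the log2 change of -0.65 (95% interval -1.16 to -0.14) did not pass (limma adjusted p = 0.149). Mertk levels were 599.2 and 643.1 in RPM_d7_Spic_KO against 1087, 1188 and 1133 in RPM_d7_Spic_WT, also without overlap (-0.87, 95% interval -1.39 to -0.35, limma adjusted p = 0.0556). It was called in 3 alternatives, with adjusted p from 0.0173 to 0.172.

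The ratio of Axl to Mertk per kb was 3.30 to 3.54 in RPM_d7_Spic_KO and 2.51 to 3.20 in RPM_d7_Spic_WT. Gas6 was at 58.07 and 51.74 in RPM_d7_Spic_KO against 31.34, 40.99 and 22.98 in RPM_d7_Spic_WT. The groups did not overlap, but the log2 change of 0.81 had an interval of -0.68 to 2.29 (limma adjusted p = 0.617). Axl exceeded Gas6 per kb in all 5 libraries, by 21.5 to 24.1 times in RPM_d7_Spic_KO and 42.8 to 90.7 times in RPM_d7_Spic_WT. Itgb5 was at 314.1 to 334.4 in RPM_d7_Spic_KO and 351.4 to 459 in RPM_d7_Spic_WT (-0.28, limma adjusted p = 0.679). Pros1 and Havcr2 overlapped between the groups, and neither exceeded 40.05 in these libraries. Mfge8 had 2 reads in RPM_d7_Spic_KO replicate 1 and 0 reads in the other 4 libraries, and Tyro3 had 0 reads in all 5. The summed macrophage markers were 5142 to 5284 in RPM_d7_Spic_KO against 6715 to 9884 in RPM_d7_Spic_WT. The summed red pulp macrophage markers were 9368 to 9471 in RPM_d7_Spic_KO against 18931 to 27647 in RPM_d7_Spic_WT, and the erythroid markers 49948 to 52439 in RPM_d7_Spic_KO against 65404 to 89882 in RPM_d7_Spic_WT. Their part in the Timd4, Axl and Mertk values was not tested.

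**Figure D4:**
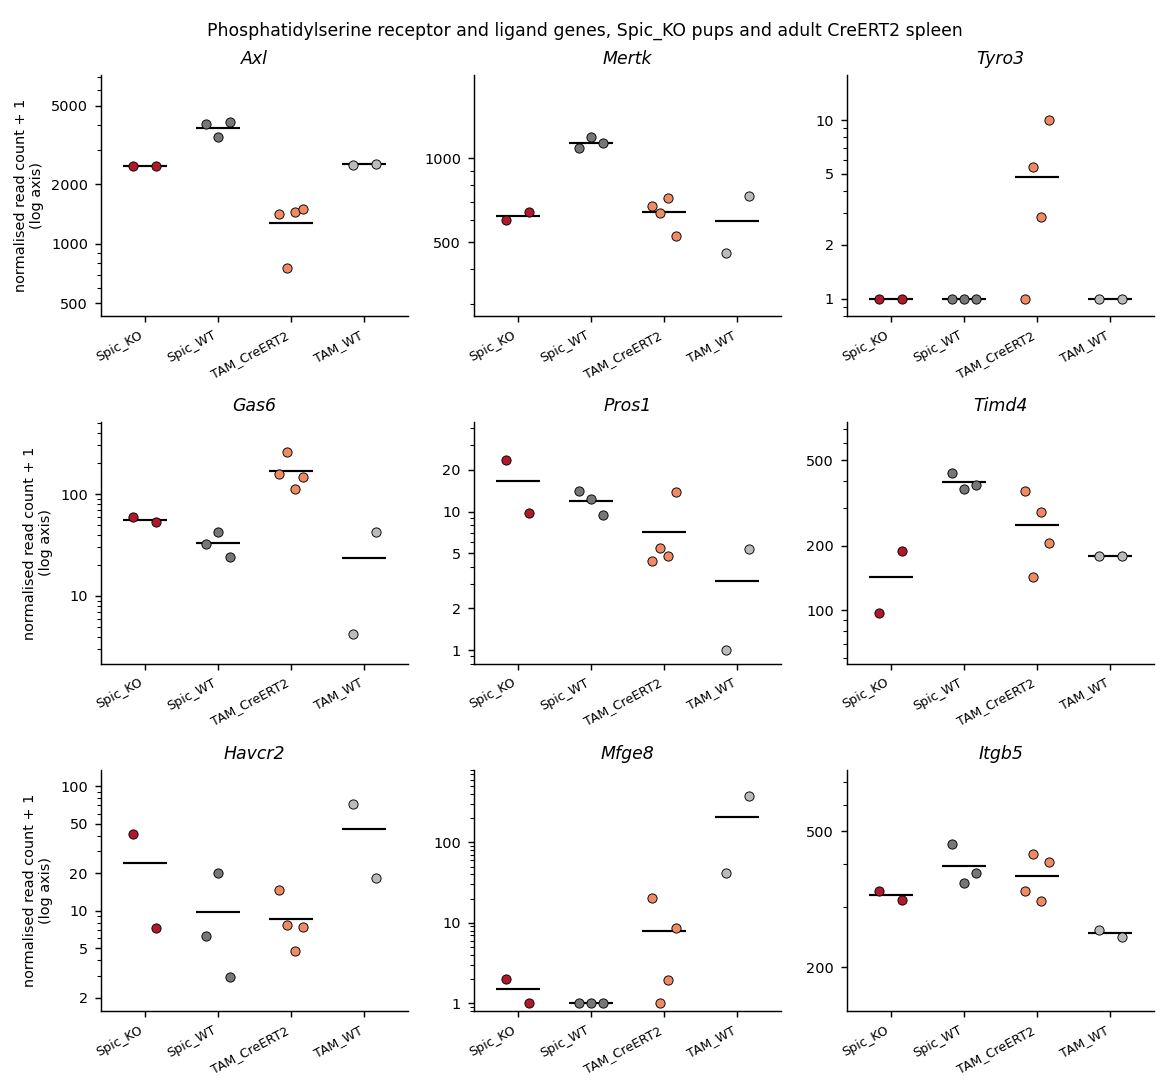
Normalised read count plus 1 (log axis) of each of the 9 genes in spleen macrophages of Spic_KO and Spic_WT pups and of adult CreERT2 and wild-type mice, where each point is 1 library and the line is the group mean. Timd4 is lower in both Spic_KO libraries than in the Spic_WT libraries, and Gas6 is higher and Axl lower in each adult CreERT2 library than in both RPM_TAM_WT libraries.

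The adult comparison asks how spleen macrophages differ in CreERT2 mice. Its CreERT2 libraries, at 0.693 to 1.67 M reads, were shallower than all others. Gas6 was the 1 of 9 genes called, and it was higher, where 0.144% of genes were called, 0.0601% higher and 0.0841% lower. Its levels were 157.9, 257.1, 110.1 and 145.1 in RPM_TAM_CreERT2, from 113 to 139 reads each. In RPM_TAM_WT they were 3.266, from 4 reads, and 41.6, from 115 reads. The groups did not overlap, and the wild-type libraries stood far apart. The log2 change was 3.57 (SE 0.68, limma adjusted p = 0.0432), and it was 1.91 (0.613) without RPM_TAM_WT replicate 1. The call was also lost without each CreERT2 library in turn, with adjusted p of 0.119, 0.0967, 0.071 and 0.15 for replicates 1, 2, 4 and 5. It also ended with no filter on low values (0.128), with a pseudocount of 5 (0.0629) and with edgeR on recovered reads (0.0747 with TMM and 0.0603 with RLE factors). The summed stromal markers were 55.2 to 76.1 in RPM_TAM_CreERT2 against 22.9 to 63.7 in RPM_TAM_WT, and the groups overlapped. The lowest sum was in the library of 4 Gas6 reads. Limma called 0 of the 6 stromal markers, with a median log2 change of -0.06, and their part in the Gas6 result was not tested.

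Axl levels were 1419, 751.2, 1450 and 1493 in RPM_TAM_CreERT2 against 2507 and 2541 in RPM_TAM_WT. All 4 CreERT2 libraries lay below both wild types, and replicate 2, the library with fewest reads, was lowest. The log2 change of -1.03 (SE 0.23, 95% interval -1.52 to -0.55) did not pass (limma adjusted p = 0.104). DESeq2 on recovered reads called it (adjusted p = 0.00821), and over all alternatives the adjusted p ran from 0.00821 to 0.528. Mertk levels were 673.5, 636, 722.5 and 523.9 in RPM_TAM_CreERT2 and 455.6 and 735 in RPM_TAM_WT, which overlapped (0.13, 95% interval -0.36 to 0.63). Axl held 50.3 to 70.8% of the summed kinase level per kb in RPM_TAM_CreERT2 and 74.9 to 82.6% in RPM_TAM_WT. The ratio of Axl to Gas6 per kb was 1.48 to 6.67 in RPM_TAM_CreERT2 against 30.9 to 389 in RPM_TAM_WT. Tyro3 had 0, 2, 2 and 7 reads in RPM_TAM_CreERT2 and 0 in both RPM_TAM_WT libraries.

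Timd4 levels were 358.9, 141.8, 286 and 204.2 in RPM_TAM_CreERT2 and 178.8 and 177.6 in RPM_TAM_WT. The wild-type values lay inside the CreERT2 range (0.39, 95% interval -0.37 to 1.15, limma adjusted p = 0.813). Mfge8 levels were 19.31, 0, 0.9408 and 7.705 in RPM_TAM_CreERT2 against 40.83 and 371.8 in RPM_TAM_WT. The groups did not overlap, and most of the wild-type signal came from replicate 3, with 1028 reads. The log2 change of -4.86 (SE 1.24) did not pass (limma adjusted p = 0.187), while edgeR on recovered reads called it (adjusted p = 0.0159 with TMM and 0.0141 with RLE factors, over a range of 0.0141 to 0.55). Mfge8 is also a product of follicular dendritic cells. The summed level of 3 follicular dendritic cell markers was 155 to 312 in RPM_TAM_CreERT2 against 475 to 832 in RPM_TAM_WT, with all 3 detected in both groups, and their part in the Mfge8 difference was not tested. Itgb5 was at 332.8, 427.7, 311.4 and 404.5 in RPM_TAM_CreERT2 against 256.4 and 244.2 in RPM_TAM_WT, without overlap (0.55, 95% interval -0.01 to 1.10, limma adjusted p = 0.668). Havcr2 was at 3.763 to 13.63 in RPM_TAM_CreERT2 against 71.04 and 17.36 in RPM_TAM_WT (-2.20, limma adjusted p = 0.645). Pros1 had at most 12 reads in any adult library.

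Of 62 other clearance genes tested, 13 were called in the splenic and 13 in the marrow vavCre comparison, where 5.52% and 7.81% of all genes were called. Among 12 other phosphatidylserine receptors and scavenger receptors tested in the vavCre comparisons, the same 5 genes were called in both tissues, 2 higher and 3 lower. Stab1, the stabilin-1 gene, was at 7507 ± 902 in RPM_d7_vavCre against 203 ± 49.4 in RPM_d7_WT (log2 change 5.22, limma adjusted p = 7.59e-13). In the marrow it was at 9620 ± 1296 in BMM_d7_vavCre against 1046 ± 46.4 in BMM_d7_WT (3.19, limma adjusted p = 1.67e-09). The difference between these Stab1 effects, 2.03, was called, also in 20 of 20 alternatives. Stab1 was the 1 of the 62 genes called in that test, where 0.119% of all genes were called. Trem2, a lipid receptor, rose by 4.58 on the log2 scale in the spleen, at 321 ± 87 in RPM_d7_vavCre against 15.1 ± 12 in RPM_d7_WT, and by 1.73 in the marrow (limma adjusted p = 2.32e-06 and 0.0249). Leaving out replicate 1 or 3 of BMM_d7_WT (0.0898, 0.0856) or replicate 1 or 3 of BMM_d7_vavCre (0.0878, 0.0553) ended the marrow call of Trem2. Cd36, a scavenger receptor and known PPARγ target, fell by 1.96 on the log2 scale in the spleen and by 2.16 in the marrow (limma adjusted p = 6.42e-05 and 2.67e-05). Stab2, the stabilin-2 gene, fell by 1.29 and by 1.41, and Lrp1, the receptor that pairs with calreticulin, by 0.61 and by 0.49 in the same tissues. The marrow call of Lrp1 ended with the compared groups only (0.0607). The median log2 change of the list was -0.17 in the spleen and -0.48 in the marrow, beside -0.02 and -0.04 over all genes.

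Receptors that sense signals released by dying cells were called higher in 3 of 6 cases in each tissue, where 2.98% of all genes were called higher in the spleen and 3.41% in the marrow. Cx3cr1, the fractalkine receptor, rose by 3.23 in the spleen and 2.71 in the marrow on the log2 scale, and the nucleotide receptor P2ry6 rose by 2.29 and 1.54 (limma adjusted p from 4.49e-10 to 0.000387). P2ry12, another nucleotide receptor, rose by 1.18 in the spleen and by 0.70 in the marrow (limma adjusted p = 0.000397 and 0.0248). Its marrow call ended when replicate 2 of BMM_d7_WT (0.101) or replicate 1 or 3 of BMM_d7_vavCre (0.0754, 0.0818) was left out, and with the compared groups only (0.0669). Of 12 engulfment genes, 3 were called higher in the spleen, beside the same 2.98%: Rac2 (0.69, limma adjusted p = 0.00428), a small GTPase, and the Rac activators Dock1 (0.98, 0.0467) and Dock2 (0.55, 0.0198). In the marrow limma called 0 of them, with 2 at an unadjusted p under 0.05, edgeR called 0 and DESeq2 called 1. The Dock1 call was lost without any 1 of the 6 libraries (adjusted p 0.104 to 0.159), with the replicate block (0.057) and with no filter (0.0564). The Dock2 call ended without replicate 1 or 2 of RPM_d7_WT (0.079, 0.0871) or replicate 2 or 3 of RPM_d7_vavCre (0.0893, 0.117). Itgav, the alpha v chain that pairs with beta 5, was at 544 ± 48.4 in BMM_d7_vavCre against 943 ± 130.1 in BMM_d7_WT (-0.79, limma adjusted p = 0.0156), a call that ended without BMM_d7_WT replicate 3 (0.0767) or BMM_d7_vavCre replicate 2 (0.051), and with the compared groups only (0.0652). In the spleen its change was -0.22 (0.691). The complement gene C1qc was called in the spleen (0.46, limma adjusted p = 0.00361) and the interferon receptor gene Ifnar1 in the marrow (0.79, 0.00419). Adam17, a protease that sheds AXL and MERTK, rose by 0.93 in the marrow (limma adjusted p = 0.00792) and was at 0.60 in the spleen (0.119). Abca1, the cholesterol exporter of macrophages that digest dead cells, rose by 1.07 in the spleen and by 0.63 in the marrow (limma adjusted p = 1.12e-05 and 0.00299). Abcg1, another of the sterol response genes, was called lower in the marrow, with a log2 change of -0.43, and kept that call in 4 of 15 alternatives.

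**Figure D5:**
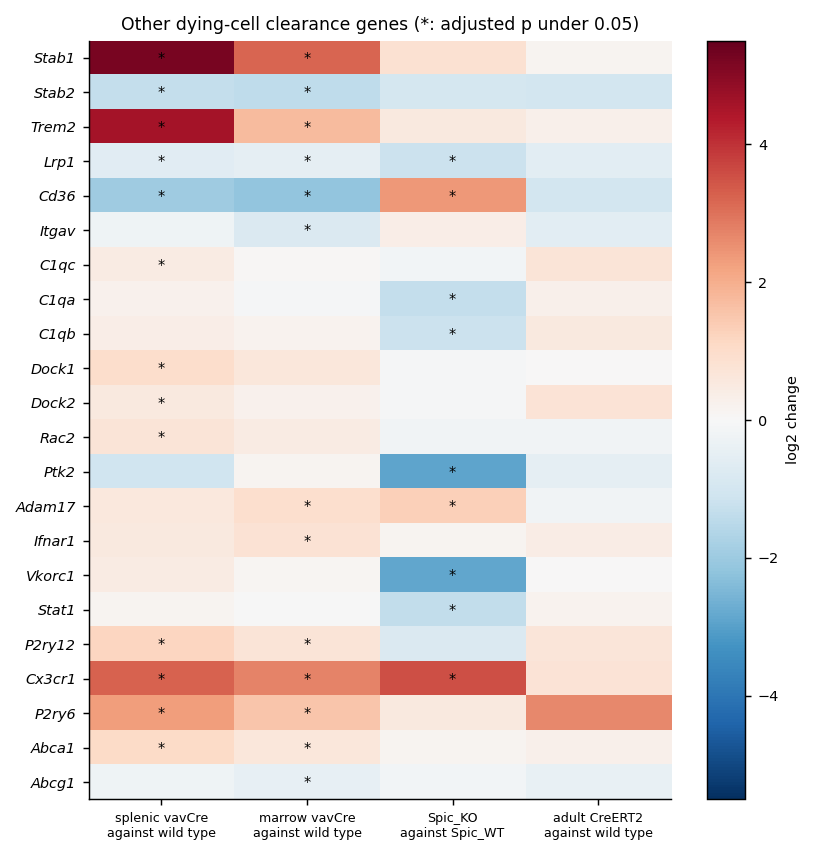
Log2 change of the 22 other dying-cell clearance genes that were called in at least 1 of the 4 genotype comparisons, with genes in rows, comparisons in columns and an asterisk for an adjusted p under 0.05. Stab1, Trem2, Cx3cr1 and P2ry6 are higher and Cd36, Stab2 and Lrp1 lower in both vavCre columns, Cd36 is higher in Spic_KO, and no cell is called in adult CreERT2.

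In Spic_KO pups 9 of 63 other clearance genes were called, where 3.95% of all genes were, 1.47% higher and 2.48% lower. Cd36 was higher, at 1432 ± 521 in RPM_d7_Spic_KO (n = 2) against 265 ± 51.6 in RPM_d7_Spic_WT (n = 3). The change was 2.40 on the log2 scale (limma adjusted p = 0.00182, and 0.0506 without RPM_d7_Spic_KO replicate 2). Cx3cr1 rose by 3.56 (limma adjusted p = 0.00133). The complement genes C1qa and C1qb, whose product coats dying cells, fell, with log2 changes of -1.30 and -1.17 (limma adjusted p = 0.00323 and 0.00852), and the C1qb call was lost without RPM_d7_Spic_KO replicate 2 (0.0955). Lrp1 fell, with a log2 change of -1.2 (limma adjusted p = 0.0212), a call that ended without RPM_d7_Spic_KO replicate 1 (0.0585) or RPM_d7_Spic_WT replicate 1 (0.0823), 2 (0.0619) or 3 (0.104), and with the replicate block (0.109). Vkorc1, part of the vitamin K cycle that serves the carboxylation of GAS6 and protein S, was at 24.4 ± 27.9 in RPM_d7_Spic_KO against 119 ± 33.8 in RPM_d7_Spic_WT (-2.87, limma adjusted p = 0.0159). It was not called without RPM_d7_Spic_KO replicate 2 (0.254), RPM_d7_Spic_WT replicate 1 (0.0713) or replicate 2 (0.0731), nor with the compared groups only (0.0842). In adult CreERT2 mice limma called 0 of the 63 other clearance genes tested, where 0.144% of all genes were called. Of the 63, 8 were at an unadjusted limma p under 0.05, edgeR called 0 and DESeq2 called 2.

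Across the 12 vavCre and wild-type libraries, the genes whose levels followed Axl most closely were Fsd2 (Pearson r = 0.982), Slco2b1 (0.970) and Epor (0.968), of 10454 genes compared on log2 values. Slco2b1, an organic anion transporter gene, was at 121 and 43.9 on average in RPM_d7_vavCre and BMM_d7_vavCre against 3622 and 4093 in RPM_d7_WT and BMM_d7_WT. Epor, the erythropoietin receptor gene, averaged 508 in RPM_d7_vavCre and 397 in BMM_d7_vavCre against 1249 in RPM_d7_WT and 1306 in BMM_d7_WT. Mertk was followed by Abcb4 (0.977), Cisd2 (0.933) and Fmnl2 (0.930). Timd4 had no gene above 0.95, and those nearest to it were Spats2l (0.877), Glyr1 (0.839) and Sned1 (0.830). These libraries fall into separate genotypes and share their scaling, so r here is a description of likeness.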

How the data were processed

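The authors deposited 2 tables of normalised signal per gene. Per the labels' protocols, cells were sorted into lysis buffer and poly(A) RNA was amplified and tagmented. Per the submitters' processing notes, the tools were STAR and edgeR and the build GRCm38 (versions not given in the sources used here). Dividing each library by 1 factor turned 96.54 to 100% of deposited signal values up to 500 reads into whole reads (within 0.1), which gave the depths. All 23 libraries were grouped by their labels, and 0 columns were left out.

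log2(signal + 1) was fitted with limma 3.58.1 (R 4.3.3; trend, robust), 1 mean a group over all libraries of a table, on genes at 1 or more in at least 2 libraries. Benjamini-Hochberg adjusted p under 0.05 over all genes tested was a call, for 7 comparisons. Fold changes are on this scale, which understates those of low genes. The fit was tested on simulated data. Alternatives were other filters and pseudocounts (0.1, 5), the compared groups only, a replicate block, each library left out, and edgeR 4.0.16 and DESeq2 1.42.0 on recovered reads. Levels per kb used GENCODE vM21 exon lengths, and promoter windows came from RefSeq, which matched all 9 genes. Cd300lb and Lilrb4a each pair with 2 identifiers in a table and were left out there. The named genes are the 9 members, the listed clearance genes called in a comparison, and the 3 genes most like Axl, Mertk and Timd4. The members and lists were chosen with earlier results of these data known. Replicate numbers were not taken as pairs, since the labels do not say what they mean. The result for 1 macrophage marker is not reported here.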

Additional observations from a re-analysis of the deposited data

Results flagged for a closer look

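In RPM_TAM_CreERT2, the 1 group of 4 libraries, Axl was 751.2 in replicate 2, far below the other 3 libraries. That library held 0.693 M reads, the fewest of the series. Pros1 was 12.84 in replicate 5 of the same group, from 10 reads, far above the others. Each gap to the nearest library was larger than Dixon's 95% limit of 0.829 of the group's range, which chance passes in about 1 of 20 groups, and 9 genes were looked at.

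The vavCre effect on Timd4 differed between spleen and marrow by 1.93 on the log2 scale (limma adjusted p = 0.00259), with all 3 RPM_d7_vavCre libraries above RPM_d7_WT and all 3 BMM_d7_vavCre libraries below BMM_d7_WT.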

How the results depend on the processing

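Of the 13 calls on the 9 genes, 189 results under alternatives kept direction and call and 22 lost the call. Among the 22, Timd4 in splenic (0.98) and marrow vavCre (-0.95) and Mertk in marrow vavCre (-0.71) failed the limit of an absolute log2 change of at least 1, with an unchanged adjusted p. The cause of the other losses was not tested. Genes called in the splenic vavCre comparison (835) were 546 with an absolute log2 change of at least 1, 1367 with the compared groups only and 1290 by DESeq2, and 742 in the marrow (1182) with the compared groups only. The tissue difference (18, 17 higher and 1 lower) gave 11 with no filter, 31 by edgeR TMM, 32 by RLE and 93 by DESeq2 (68 and 25). Spleen against marrow gave 329 with the log2 limit and 952 by DESeq2 in wild type (588), and 950 by DESeq2 in vavCre (586 and 364, against 529, 405 and 124). Spic_KO (658, 245 higher and 413 lower) gave 332 with the replicate block, 997 by TMM (603 and 394), 1118 by RLE (736 and 382) and 1694 by DESeq2 (907 and 787). The adult comparison (24, 10 and 14) gave 5 with no filter, 14 and 9 with pseudocounts 0.1 and 5, 37 with the compared groups only, 34 by TMM (10 and 24) and 130 by DESeq2. Of the 9 genes, 2 were called in the marrow with the log2 limit, 4 in vavCre spleen against marrow by DESeq2, 2 in Spic_KO with the strict filter, the compared groups only or DESeq2 and 0 with the block, and in adults 0 with no filter or pseudocount 5 and 2 by DESeq2. In the spleen Havcr2 was -0.02 by TMM and -0.01 by RLE and DESeq2, and Mfge8 was 0.07 with pseudocount 5 and 0.70 by TMM, RLE and DESeq2.

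Leaving out 1 library at a time, genes called ranged from 536 to 649 (splenic vavCre), 890 to 1102 (marrow), 11 to 24 (tissue difference), 269 to 665 (wild-type tissues), 271 to 479 (vavCre tissues), 261 to 1972 (Spic_KO) and 2 to 18 (adult), and members called were 3, 3 to 4, 1, 0 to 2, 2 to 3, 0 to 1 and 0 to 1 in that order. Log2 changes that turned sign ranged, in splenic vavCre, from -0.47 to 1.87 (Tyro3), -0.60 to 1.19 (Havcr2) and -1.30 to 1.15 (Mfge8), and in the marrow from -0.14 to 0.52 (Pros1), -1.57 to 0.02 (Mfge8) and -0.29 to 0.02 (Itgb5). In the tissue difference they ranged from -0.36 to 1.42 (Havcr2), -0.69 to 1.75 (Mfge8) and -0.08 to 0.22 (Itgb5), and elsewhere from -2.30 to 0.14 (Mfge8, vavCre tissues), -0.26 to 1.00 (Pros1, Spic_KO) and -0.21 to 0.48 (Mertk, adult).

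With the replicate block, genes called were 784, 1094, 13, 537, 494 and 332 in the first 6 comparisons, and among the 9 genes only Timd4 in Spic_KO (-1.56, adjusted p = 0.078) and Havcr2 in vavCre spleen against marrow (0.0389) changed call. Among the other genes named, the block ended the calls of Dock1 in the spleen (0.057), of Abcg1 in the marrow (0.0655) and of Lrp1 (0.109) and Spic (0.0719) in Spic_KO. Deviations of same-numbered libraries from their group means correlated at -0.097 to 0.094 and 0.012 to 0.018, and the numbers were not taken as pairs. With 2 or 3 libraries in a group, such values cannot exclude pairing. No paired analysis was possible in adults because the groups share fewer than 2 numbers. Scaling moved the median of all genes by at most 0.11 (adult, RLE and DESeq2). Depth limits Tyro3 in all groups, and Pros1, Havcr2 and Mfge8 in RPM_TAM_CreERT2, where no library held more than 17 reads of any of them.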
